A study of Mus musculus with 9 samples.

Results

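The bile acid genes of rat liver are described here in 9 libraries: 10 genes for bile acid synthesis, its control by the receptor FXR, and bile salt transport. They were chosen by name from the 37203 gene rows of the deposited count table, and all 10 were among the 14581 genes with enough counts to be tested. Each group held 3 libraries of whole liver from Wistar rats that the labels describe as male. Their age is not stated in the labels. The schisandrin B group received CCl4 (carbon tetrachloride, a liver toxin that damages hepatocytes), given 3 times weekly over 8 weeks at 2 mL/kg of a 50% solution in olive oil. From week 4 these rats also received schisandrin B, a lignan of Schisandra fruit, every day for 4 weeks. Both 25 and 50 mg/kg per day were used in the study, and which of them these libraries had is not given in the sources used here. Fibrosis animals had the same CCl4 course alone, and the normal group received olive oil for 8 weeks. Whether libraries of one group are separate rats is not stated in the labels, so errors and p-values cover only the spread between these libraries, which may be technical.

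Hepatocytes make bile acids from cholesterol. The classic pathway starts with Cyp7a1, and Cyp8b1 then decides how much cholic acid is made. The alternative pathway starts with Cyp27a1 and continues with Cyp7b1. Slc27a5 and Baat attach taurine or glycine, Abcb11 pumps the conjugated salts into the canaliculus, and Slc10a1 takes them up again from blood. Bile acids activate FXR, the product of Nr1h4, which induces Nr0b2, a repressor of Cyp7a1, and Abcb11.

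The libraries held 10320299 to 16255167 counts. The share of counts on the 10 genes was 0.496% to 0.579% with schisandrin B, 0.166% to 0.197% in fibrosis and 0.484% to 0.554% in normal libraries. Hepatocyte markers were abundant everywhere: all 14 had counts in every group, and their summed level was 228800 to 253700 CPM with schisandrin B, 107800 to 153000 CPM in fibrosis and 269200 to 305700 CPM in normal libraries. Alb was the largest part of each sum, with means of 141270, 50982 and 172060 CPM in the same groups. Not all of the 14 were lower in fibrosis, and the calls for the list are counted below. Serpina1 and Fgg averaged 14576 and 5637 CPM in fibrosis, and 10874 and 3679 CPM in normal libraries. In bulk liver, fewer cells of a type and less RNA per cell cannot be told apart. Fibrosis replicate 1 stood farthest from its group, with a mean correlation of 0.947 across genes, where the other libraries had 0.960 to 0.980. The normal libraries had 0 counts of the Y-linked Kdm5d and Eif2s3y, which had 5.91 to 13.3 CPM in the other 6 libraries. The third Y-linked gene with a row, Ddx3y, was low in all groups, with 16, 7 and 6 counts with schisandrin B, 12, 16 and 26 in fibrosis and 12, 12 and 32 in normal libraries. All groups are labelled male, and whether they differ in sex was not tested. In any comparison with normal libraries the treatment and this difference in Y-linked counts, or a difference in sex, cannot be told apart. The normal libraries also held 80.8 to 239 CPM of the pancreatic enzyme gene Cpa1, with 0 counts elsewhere. The other pancreatic markers did not follow it. Cela1 had 3.82 to 8.60 CPM with schisandrin B, 0.486 to 0.763 CPM in fibrosis and 0.945 to 2.83 CPM in normal libraries. Cpb1 had 0.303 to 3.93 CPM over all 9 libraries. Cela2a, Cel and Pnlip had at most 2 counts in any library, and Prss1 and Ctrb1 had 0 counts in all 9.

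Levels are given as TMM-scaled CPM, counts scaled to library size, which are not divided by gene length, so only libraries are compared, not genes with each other. A change is a log2 fold change ± SE from edgeR's quasi-likelihood test over all 14581 genes, and a gene is called, and said to have risen or fallen, at a Benjamini-Hochberg adjusted p under 0.05. The comparisons share groups of libraries, so their values for a gene are not independent of each other.

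With schisandrin B, 8 of the 10 genes rose and 0 fell relative to fibrosis. Of all tested genes 47.3% were called in this comparison, 22.5% higher and 24.8% lower. No member was lower at an unadjusted p under 0.05 by edgeR or called lower by DESeq2 or limma voom. In fibrosis 9 of the 10 fell and 1, Cyp7b1, rose relative to normal, where 48.3% of all tested genes were called, 25.4% higher and 22.9% lower. Between schisandrin B and normal 0 of the 10 were called by edgeR, against 10.5% of all tested genes, 5.25% higher and 5.25% lower. At an unadjusted p under 0.05 edgeR had 2 members higher and 1 lower, DESeq2 called 1 lower and limma voom 1 higher. The 3 libraries of each group did not overlap for 9 of the 10 genes between schisandrin B and fibrosis, for 10 between fibrosis and normal and for 4 between schisandrin B and normal. Over all tested genes this held for 56.8%, 55.8% and 38.7% in the same comparisons. The median change of the 10 genes was 2.04 for schisandrin B over fibrosis, -2.13 for fibrosis over normal and 0.06 for schisandrin B over normal on the log2 scale. Over all tested genes the medians were -0.03, 0.03 and 0.00 in the same comparisons.

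**Figure D1:**
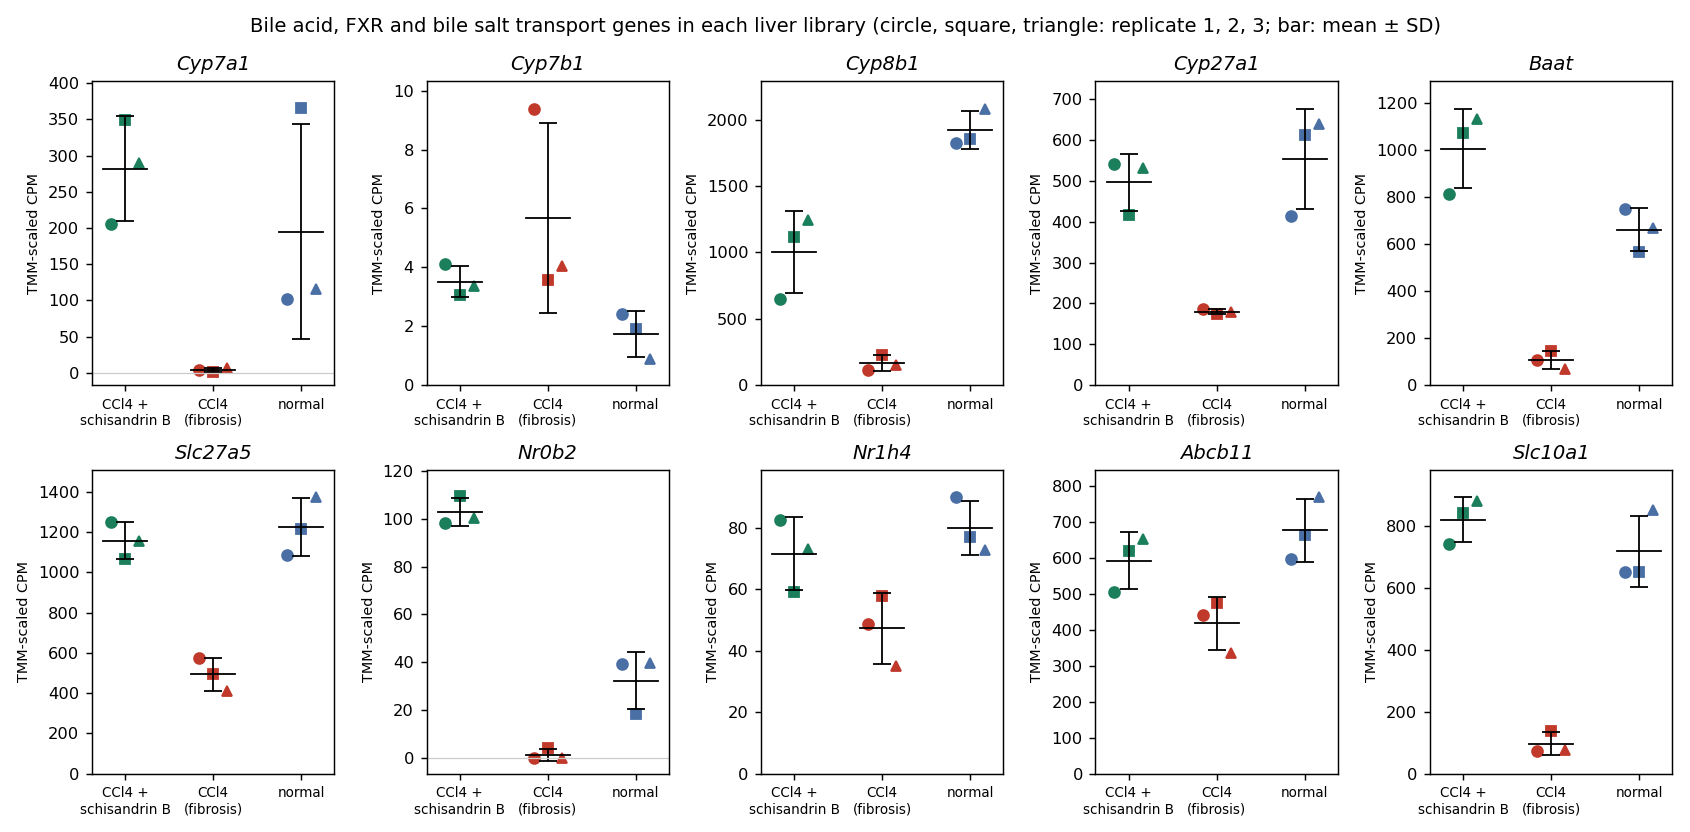
Level of each of the 10 genes (TMM-scaled CPM, linear axis) in the schisandrin B, fibrosis and normal libraries, with a symbol per replicate and bars for the mean ± SD of 3 libraries. The fibrosis libraries are the lowest in 9 panels, while Cyp7b1 is lowest in normal libraries.

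Cyp7a1, the rate-limiting enzyme of the classic pathway, stood at 206, 350 and 290 CPM in schisandrin B libraries, 3.97, 1.51 and 6.28 CPM in fibrosis libraries and 103, 366 and 116 CPM in normal libraries. Every fibrosis library was far below the lowest library of both other groups, and the schisandrin B and normal ranges overlapped. Cyp7a1 rose by 6.15 ± 0.68 on the log2 scale with schisandrin B over fibrosis (edgeR adjusted p 8.4e-05). It fell by 5.62 ± 0.67 in fibrosis relative to normal (edgeR adjusted p 0.000108). Normal replicate 2 held most of the normal level. Without it the fall in fibrosis was -4.79 on the log2 scale (edgeR adjusted p 0.000107), and schisandrin B stood 1.36 above normal without a call (edgeR adjusted p 0.106), where all libraries gave 0.53 ± 0.54 (edgeR adjusted p 0.585).

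The clock-controlled activator Dbp, which is known to bind the Cyp7a1 promoter in rats, was looked at after these values had been seen. It had 141, 136 and 146 CPM with schisandrin B, 2.83, 13.2 and 26.1 CPM in fibrosis and 159, 186 and 200 CPM in normal libraries. Arntl, a core clock gene that peaks at another time of day, had 2.48 to 2.77 CPM with schisandrin B, 11.5 to 30.9 CPM in fibrosis and 1.42 to 1.80 CPM in normal libraries. Of 12 clock genes tested, 6 rose and 2 fell with schisandrin B over fibrosis, and 4 rose and 7 fell in fibrosis relative to normal. Among all tested genes 47.3% and 48.3% were called in these comparisons. The hour of sampling is not given in the sources used here, and its part in the Cyp7a1 result was not tested.

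Cyp8b1, which directs synthesis towards cholic acid, had 652, 1118 and 1243 CPM in schisandrin B libraries, 112, 228 and 152 CPM in fibrosis libraries and 1825, 1858 and 2085 CPM in normal libraries. No pair of groups overlapped, and schisandrin B libraries lay between the others. Cyp8b1 rose by 2.61 ± 0.31 over fibrosis (edgeR adjusted p 6.61e-05) and fell by 3.55 ± 0.33 in fibrosis relative to normal (edgeR adjusted p 1.08e-05). With schisandrin B it averaged 52.2% of the normal mean, a difference of -0.94 ± 0.30 on the log2 scale that missed the threshold (edgeR adjusted p 0.068). This difference was called in 5 of 16 alternatives, among them DESeq2 (adjusted p 0.0209) and the fit on the 2 groups alone (edgeR adjusted p 0.0135), and its adjusted p ranged from 0.0135 to 0.214.

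Cyp27a1, the mitochondrial hydroxylase that opens the alternative pathway and also oxidises the side chain, changed less. It had 542, 416 and 532 CPM with schisandrin B, 187, 173 and 179 CPM in fibrosis and 414, 612 and 638 CPM in normal libraries. The fibrosis libraries were close together and below all others. Cyp27a1 rose by 1.47 ± 0.22 over fibrosis (edgeR adjusted p 0.000245) and fell by 1.62 ± 0.22 in fibrosis relative to normal (edgeR adjusted p 0.000113).

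Cyp7b1, the oxysterol hydroxylase of the alternative pathway, went the other way at a low level. Its levels were 4.11, 3.06 and 3.38 CPM with schisandrin B, 9.39, 3.56 and 4.05 CPM in fibrosis and 2.41, 1.90 and 0.891 CPM in normal libraries. All fibrosis libraries were above all normal ones, but fibrosis replicate 1 was far above the other 2. Cyp7b1 rose by 1.70 ± 0.45 in fibrosis relative to normal (edgeR adjusted p 0.00845), and by 1.14 without fibrosis replicate 1 (edgeR adjusted p 0.0278). With schisandrin B it differed from fibrosis by -0.68 ± 0.43 without a call (edgeR adjusted p 0.212), and the 95% interval of that difference ran from -1.62 to 0.25 on the log2 scale. Without fibrosis replicate 1 the difference was -0.12 (edgeR adjusted p 0.81). All schisandrin B libraries were above all normal ones, with a mean of 203% of the normal mean. That difference from normal was not called in the main fit or in any of 16 alternatives, whose adjusted p ranged from 0.0676 to 0.431.

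The conjugating enzymes were both lower in fibrosis than in either other group. Baat, which joins bile acids to taurine or glycine, had 812, 1073 and 1130 CPM with schisandrin B, 106, 144 and 69.0 CPM in fibrosis and 748, 566 and 667 CPM in normal libraries. All schisandrin B libraries exceeded all normal ones, and all normal ones exceeded the fibrosis libraries. Baat rose by 3.24 ± 0.29 over fibrosis (edgeR adjusted p 1.2e-05) and fell by 2.64 ± 0.28 in fibrosis relative to normal (edgeR adjusted p 2.67e-05). Schisandrin B stood 0.61 ± 0.27 above normal (edgeR adjusted p 0.172), a difference called in the fit on those 2 groups alone (edgeR adjusted p 0.0277) and in none of the other 15 alternatives, whose adjusted p reached 0.395.

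Slc27a5, which activates bile acids with coenzyme A before conjugation, had 1250, 1067 and 1154 CPM with schisandrin B, 575, 495 and 412 CPM in fibrosis and 1085, 1214 and 1371 CPM in normal libraries. It rose by 1.23 ± 0.20 over fibrosis (edgeR adjusted p 0.000526) and fell by 1.31 ± 0.20 in fibrosis relative to normal (edgeR adjusted p 0.000319). The profile of Slc27a5 over the 9 libraries was the closest to that of Cyp27a1 among the 10 genes, with a root mean square difference of 0.195 on the centred log2 scale.

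Nr0b2, which encodes the repressor SHP, had 98.1, 109 and 100 CPM in schisandrin B libraries, 0, 4.09 and 0.117 CPM in fibrosis libraries and 39.3, 18.5 and 39.6 CPM in normal libraries. The fibrosis values rest on 0, 54 and 2 counts, and 3 counts, the limit that a count of 0 allows, are worth 0.176 to 0.243 CPM in these libraries. The groups did not overlap, and schisandrin B libraries were the highest. Nr0b2 rose by 6.22 ± 1.04 over fibrosis (edgeR adjusted p 0.0013) and fell by 4.56 ± 0.99 in fibrosis relative to normal (edgeR adjusted p 0.00499). Both sizes depend on fibrosis replicate 2, which held nearly all of the fibrosis counts. Without it the fibrosis group had 0 and 2 counts, too few for a fold to be given. The rise and the fall were still called then (edgeR adjusted p 5.98e-06 and 5.85e-06).

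The mean of Nr0b2 with schisandrin B was 316% of the normal mean, a difference of 1.66 ± 0.81 on the log2 scale that was not called (edgeR adjusted p 0.232). Its 95% interval ran from -0.17 to 3.50. It was called in 3 of 16 alternatives, with an adjusted p of 0.00298 in the fit on the 2 groups alone, 0.00597 without fibrosis replicate 2 and 0.027 with limma voom, and over the alternatives its adjusted p reached 0.495. Within the normal and the fibrosis group, replicate 2 was the extreme library for both Nr0b2 and Cyp7a1, in opposite directions. In the normal group it was lowest for Nr0b2 and highest for Cyp7a1, and in the fibrosis group highest for Nr0b2 and lowest for Cyp7a1. Among schisandrin B libraries replicate 2 was highest for both genes. With 3 libraries in a group this is a description only.

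Nr1h4, the FXR gene itself, had 82.6, 59.1 and 72.9 CPM with schisandrin B, 48.8, 57.8 and 35.1 CPM in fibrosis and 89.8, 77.1 and 72.9 CPM in normal libraries. Schisandrin B replicate 2 was only just above fibrosis replicate 2. Nr1h4 rose by 0.60 ± 0.21 over fibrosis (edgeR adjusted p 0.0337) and fell by 0.76 ± 0.21 in fibrosis relative to normal (edgeR adjusted p 0.0106). The rise over fibrosis was no longer called without schisandrin B replicate 1, schisandrin B replicate 3 or fibrosis replicate 3, with edgeR adjusted p of 0.0937, 0.0851 and 0.115.

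Abcb11, the bile salt export pump, had levels of 505, 621 and 654 CPM with schisandrin B, 442, 476 and 337 CPM in fibrosis and 597, 665 and 769 CPM in normal libraries. The fibrosis libraries were below all others, by a small margin. Abcb11 fell by 0.70 ± 0.21 in fibrosis relative to normal (edgeR adjusted p 0.0166) and was 0.51 ± 0.21 higher with schisandrin B than in fibrosis without a call (edgeR adjusted p 0.065). The 95% interval of the difference from fibrosis ran from 0.05 to 0.96 on the log2 scale. DESeq2 called it (adjusted p 0.0304), as did edgeR without schisandrin B replicate 1 (adjusted p 0.0456) and without fibrosis replicate 2 (adjusted p 0.0464). The fall in fibrosis was not called without fibrosis replicate 3 (edgeR adjusted p 0.0507) or normal replicate 3 (edgeR adjusted p 0.0682).

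The calls for Nr1h4 and Abcb11 depended on how libraries were scaled. Scaled to the hepatocyte markers, Nr1h4 in fibrosis differed from normal by -0.17 (edgeR adjusted p 0.492) and Abcb11 by -0.09 (edgeR adjusted p 0.683) on the log2 scale. On the same scale schisandrin B differed from fibrosis by 0.16 for Nr1h4 (edgeR adjusted p 0.535) and by 0.05 for Abcb11 (edgeR adjusted p 0.846). Scaling to library totals also ended the 3 calls, at 0.35 and -0.35 for Nr1h4 and -0.28 for Abcb11 (edgeR adjusted p 0.167, 0.162 and 0.219). The other 8 genes kept the direction and the calls described above relative to fibrosis and normal under both scalings, except that hepatocyte marker scaling made the lower level of Cyp7b1 with schisandrin B a call, at -1.17 (edgeR adjusted p 0.0497). Relative to the hepatocyte markers, Cyp7a1 still rose by 5.63 and Slc10a1 by 2.65 over fibrosis on the log2 scale. Of the 14 markers themselves 8 fell and 1 rose in fibrosis relative to normal. Alb, for example, averaged 29.6% of the normal mean there and Fgg 153%. This scaling is therefore not a measure of hepatocyte amount.

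**Figure D2:**
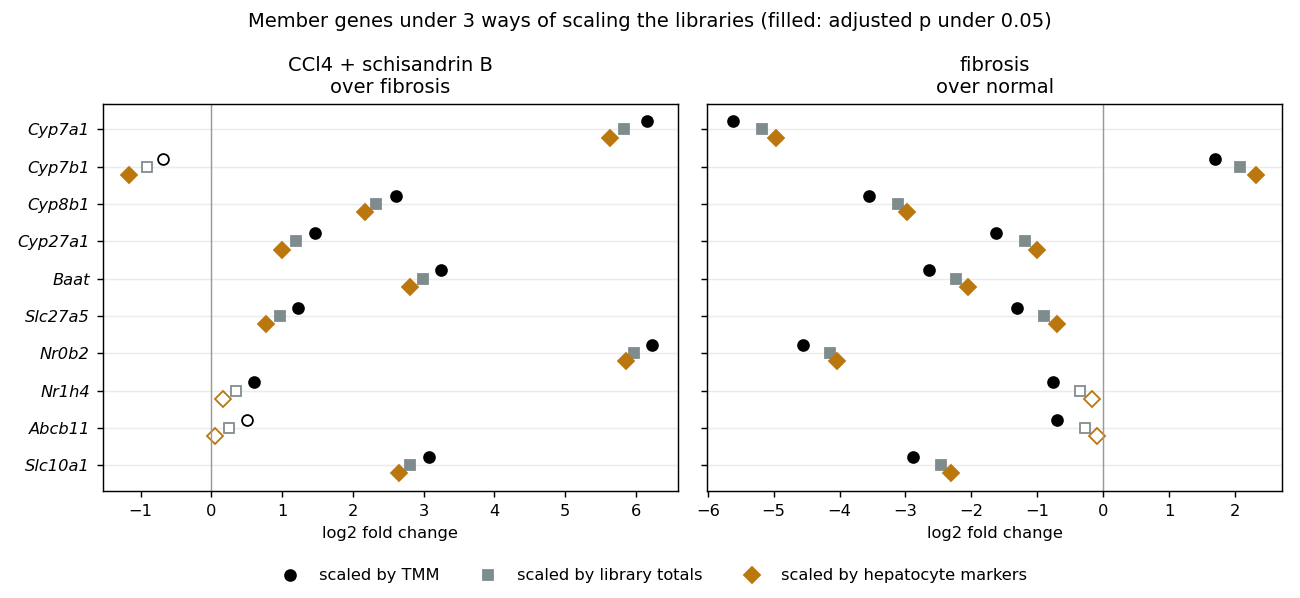
Log2 fold change of each gene for schisandrin B over fibrosis and for fibrosis over normal, with libraries scaled by TMM, by library totals or by the geometric mean of 14 hepatocyte markers. Filled symbols are called at an adjusted p under 0.05, and the symbols of Nr1h4 and Abcb11 approach 0 under the last scaling.

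Slc10a1, the sodium-dependent carrier that returns bile salts from blood, had 741, 842 and 879 CPM in schisandrin B libraries, 74.1, 139 and 78.2 CPM in fibrosis libraries and 652, 652 and 851 CPM in normal libraries. Schisandrin B and normal libraries overlapped, and the fibrosis libraries were far below both. Slc10a1 rose by 3.08 ± 0.28 over fibrosis (edgeR adjusted p 1.23e-05) and fell by 2.89 ± 0.27 in fibrosis relative to normal (edgeR adjusted p 1.32e-05).

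**Figure D3:**
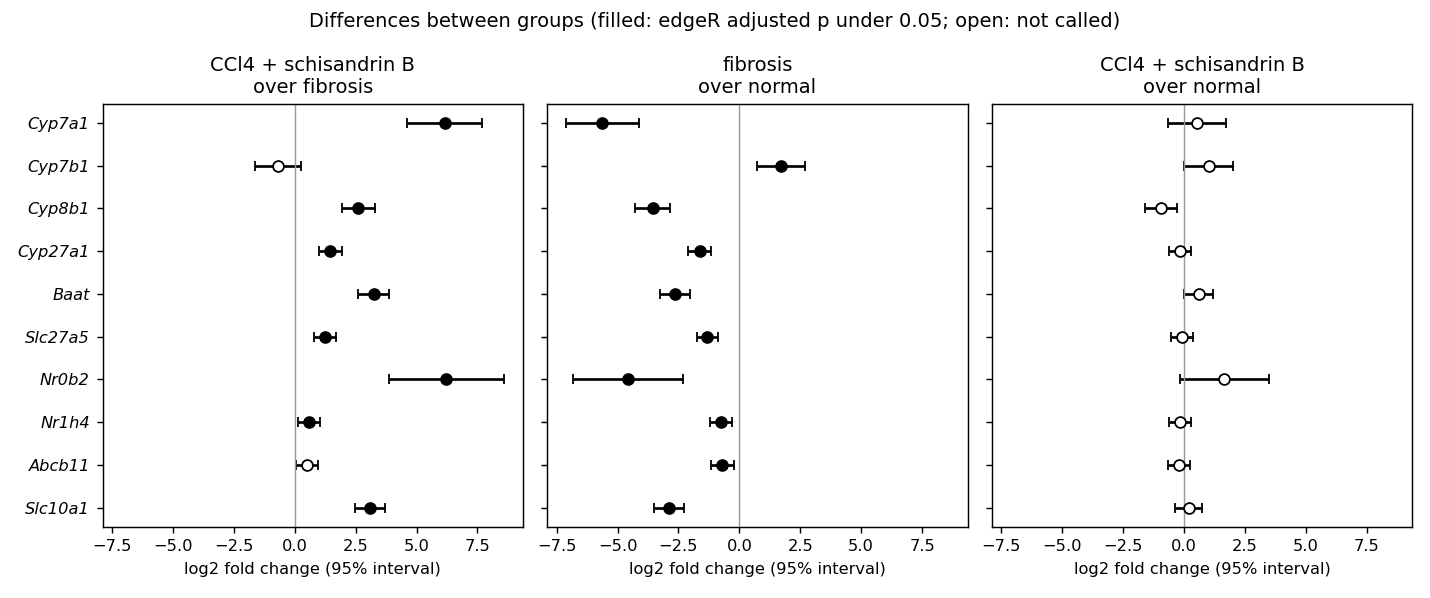
Log2 fold change with its 95% interval for the 10 genes in each comparison, with filled points called at an edgeR adjusted p under 0.05. Cyp7a1 and Nr0b2 lie farthest from 0 in the comparisons with fibrosis, and all points are open for schisandrin B over normal.

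Ratios of counts within a library need no scaling between libraries, and gene length cancels when groups are compared. The 4 ratios were chosen with earlier results of these data known, so their separation and p-values are a description only. Of 12 differences in 4 ratios, 10 had no overlap between groups. Each of these had an exact two-sided permutation p of 0.1, the smallest that 3 against 3 libraries allow, and 0.12 after Benjamini-Hochberg adjustment. The log2 ratio of Abcb11 to Slc10a1 counts, export pump to uptake carrier, was -0.47 ± 0.07 with schisandrin B, 2.15 ± 0.40 in fibrosis and -0.08 ± 0.10 in normal libraries (SD, n = 3). In the mean, fibrosis libraries were 2.23 above normal ones on the log2 scale, and every fibrosis library was above 1.77 where the highest of the other 6 libraries had 0.029.

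The log2 ratio of Cyp7a1 to Cyp8b1 was -1.66, -1.68 and -2.10 with schisandrin B, -4.81, -7.20 and -4.59 in fibrosis and -4.15, -2.34 and -4.16 in normal libraries. It was higher in all schisandrin B libraries than in any library of the other groups, by 1.74 in the mean over normal. The ratio of Cyp7a1 to Cyp7b1, the classic against the alternative hydroxylase, averaged 6.29 ± 0.60 with schisandrin B, -0.61 ± 1.07 in fibrosis and 6.64 ± 1.12 in normal libraries on the log2 scale (SD, n = 3). Schisandrin B and normal libraries overlapped in this ratio (exact permutation p 0.7). The ratio of Cyp7a1 to Cyp27a1 averaged -0.84 ± 0.57, -5.73 ± 1.00 and -1.74 ± 0.89 in schisandrin B, fibrosis and normal libraries (SD, n = 3), and it also overlapped between schisandrin B and normal (exact permutation p 0.3).

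**Figure D4:**
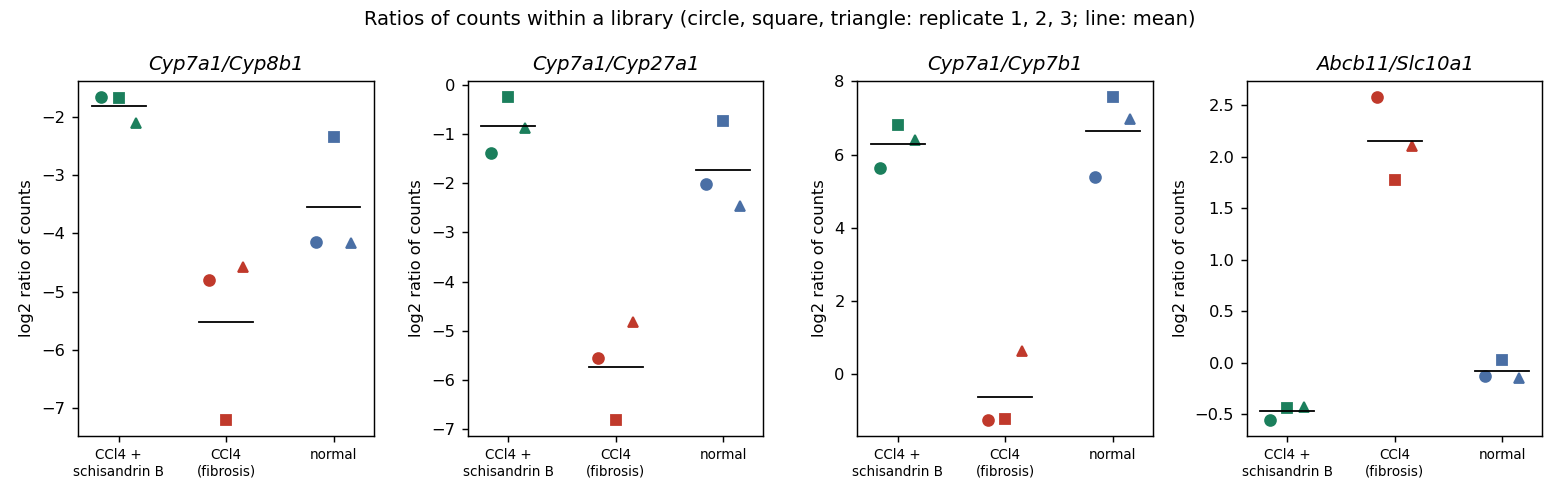
Log2 ratio of counts of gene pairs within each library for the schisandrin B, fibrosis and normal groups, with a symbol per replicate and a line for the mean. Fibrosis libraries stand apart from both other groups in all 4 ratios, although in Cyp7a1/Cyp8b1 they come close to 2 normal libraries.

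The rest of the synthesis pathway moved in the same directions for most genes. Of 14 other synthesis enzymes, all tested, 10 rose and 3 fell with schisandrin B over fibrosis, with a median of 1.46 on the log2 scale. In fibrosis 8 fell and 1 rose relative to normal, with a median of -1.44. Calls over all tested genes made up 47.3% and 48.3% in these comparisons. Amacr, which turns the side chain into the form that can be oxidised, rose by 3.40 ± 0.30 over fibrosis (edgeR adjusted p 1.21e-05), and the oxidase Acox2 rose by 3.07 ± 0.29 (edgeR adjusted p 1.65e-05). Relative to normal, Amacr fell by 2.66 and Acox2 by 2.78 in fibrosis on the log2 scale. Slc27a2, a fatty acid and bile acid coenzyme A ligase, rose by 2.37 over fibrosis, and Cyp39a1, an oxysterol hydroxylase, fell by 1.74 in fibrosis relative to normal. Cyp39a1 with schisandrin B averaged 62.6% of the normal mean, called lower in the main fit and in 9 of 16 alternatives.

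Among the ring-modifying enzymes, Akr1d1, a reductase of the sterol ring, had 1133, 1340 and 856 CPM with schisandrin B, 248, 258 and 130 CPM in fibrosis and 376, 345 and 315 CPM in normal libraries. It rose over fibrosis by 2.39 ± 0.29 (edgeR adjusted p 6.45e-05) and was also called above normal, by 1.68 ± 0.28 (edgeR adjusted p 0.00345). Akr1c14, the next dehydrogenase, had 698, 931 and 819 CPM with schisandrin B, 130, 223 and 161 CPM in fibrosis and 1498, 1405 and 1267 CPM in normal libraries. It rose over fibrosis by 2.25 ± 0.24 (edgeR adjusted p 3.31e-05), and all its schisandrin B libraries were below the normal ones, at -0.77 ± 0.23 without a call (edgeR adjusted p 0.0555). This difference was called in 5 of 16 alternatives, among them DESeq2 (adjusted p 0.0109) and the fit on the 2 groups alone (edgeR adjusted p 0.00663). Its reads can be shared with Akr1c paralogs, so its values are uncertain. The 3 enzymes that fell with schisandrin B, named after their values had been seen, were Ch25h at -2.31, Fdx1 at -1.15 and Acot8 at -0.61 on the log2 scale. Ch25h makes an oxysterol, Fdx1 passes electrons to mitochondrial cytochromes P450, and Acot8 is a peroxisomal thioesterase. Ch25h was also the enzyme that rose in fibrosis relative to normal, by 3.49 ± 0.84 (edgeR adjusted p 0.00582). Fibrosis replicate 1 had 14.2 CPM of Ch25h and 86.6 CPM of Fdx1, the highest level of any library for both. Without it schisandrin B differed from fibrosis by -0.99 for Ch25h (edgeR adjusted p 0.169) and by -0.50 for Fdx1 (edgeR adjusted p 0.179). The call for Fdx1 held in 4 of 16 alternatives, that for Ch25h in 10 and that for Acot8 in 11. Acot8 lost it without schisandrin B replicate 1 or 2, fibrosis replicate 2 or normal replicate 3, Ch25h without any one schisandrin B library, and Fdx1 without any one library other than fibrosis replicate 3.

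Of 14 other transporters 13 had a row and 11 were tested. With schisandrin B 7 rose and 1 fell over fibrosis (median 1.59), and in fibrosis 6 fell and 1 rose relative to normal (median -1.23). For all tested genes the shares called were 47.3% and 48.3%. Slco1b2, a sodium-independent uptake carrier, had 427, 594 and 608 CPM with schisandrin B, 40.2, 23.1 and 18.9 CPM in fibrosis and 469, 451 and 325 CPM in normal libraries. It rose by 4.31 ± 0.33 over fibrosis (edgeR adjusted p 5.84e-06) and fell by 3.92 ± 0.32 in fibrosis relative to normal (edgeR adjusted p 6.02e-06). The related carriers Slco1a1 and Slco2b1 rose by 2.42 and 1.59 over fibrosis. Slco1a1 with schisandrin B averaged 168% of the normal mean, called higher in the main fit and in 11 of 16 alternatives. Reads of Slco1a1 can be shared with Slco1a paralogs.

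Abcg5 and Abcg8, which together form the canalicular sterol exporter, rose by 4.36 ± 0.49 (edgeR adjusted p 8.17e-05) and 3.92 ± 0.80 (edgeR adjusted p 0.00307) over fibrosis. Abcb4, which moves phospholipid into bile, rose by 1.04 ± 0.25 over fibrosis (edgeR adjusted p 0.00537), or by 0.58 without a call when scaled to hepatocyte markers (edgeR adjusted p 0.0552), and fell by 1.23 in fibrosis relative to normal. The 1 transporter that fell with schisandrin B was Abcc2, a canalicular exporter of conjugates, at -0.95 ± 0.29 (edgeR adjusted p 0.0188), named after its value had been seen. It had 538 to 611 CPM with schisandrin B, 774 to 1683 CPM in fibrosis and 998 to 1549 CPM in normal libraries, and its schisandrin B libraries were below all others. It was also called below normal, at -1.13 ± 0.29 (edgeR adjusted p 0.0309). Without fibrosis replicate 1, the highest library, the difference from fibrosis was -0.55 (edgeR adjusted p 0.0561), and without any one schisandrin B library the edgeR adjusted p was 0.0538 to 0.0707. The call below normal was lost without any one schisandrin B library or normal replicate 2 or 3, with an edgeR adjusted p of up to 0.123, and with hepatocyte marker scaling, at -0.98 (edgeR adjusted p 0.0537). Slc10a2, the apical carrier best known from ileum and bile ducts, was the transporter that rose in fibrosis relative to normal (edgeR adjusted p 0.0148). The rise rested on 4, 14 and 4 counts in fibrosis against 1, 0 and 0 in normal libraries, too few for a fold to be given. Slc10a2 was named after its values had been seen. It had more counts with schisandrin B, 25, 26 and 8, and was called above normal there too (edgeR adjusted p 0.0062), while its difference from fibrosis was 1.64 ± 0.66 without a call (edgeR adjusted p 0.0596). The rise in fibrosis was not called without fibrosis replicate 2 (edgeR adjusted p 0.0608), normal replicate 2 (edgeR adjusted p 0.0575) or normal replicate 3 (edgeR adjusted p 0.052). Slc51b, part of the basolateral bile acid exporter that FXR induces, had 0 counts in all 9 libraries and was also named after its values had been seen.

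**Figure D5:**
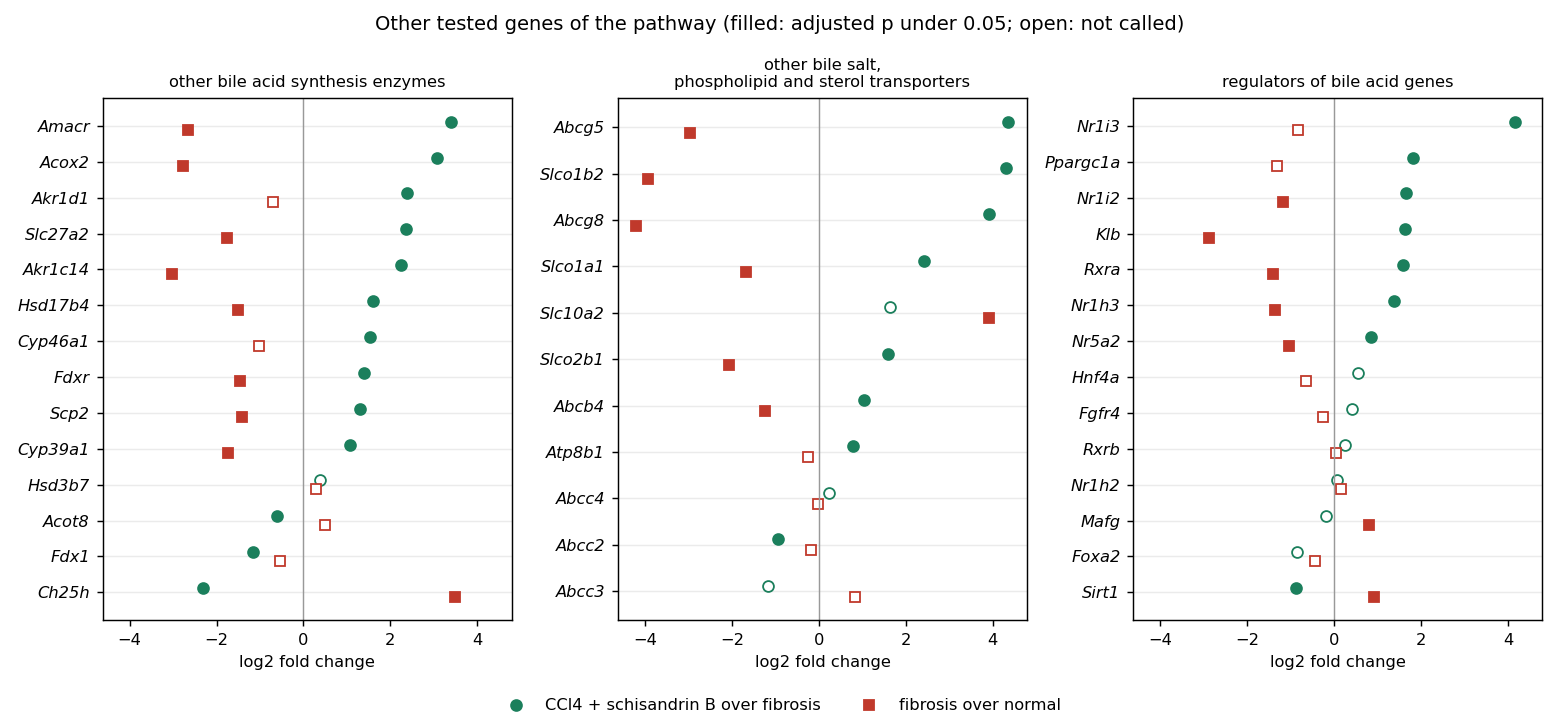
Log2 fold change of other tested synthesis enzymes, transporters and regulators for schisandrin B over fibrosis (circles) and fibrosis over normal (squares), with filled symbols called at an adjusted p under 0.05. Most enzymes and carriers have circles to the right and squares to the left of 0, while Ch25h, Abcc2 and Sirt1 do not.

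Of 18 regulators 17 had a row and 15 were tested. With schisandrin B 7 rose and 2 fell over fibrosis (median 0.55), and in fibrosis 5 fell and 2 rose relative to normal (median -0.66). The shares called over all tested genes were 47.3% and 48.3%, and the regulators called in fibrosis were not above that share. Rxra, the receptor that FXR pairs with, had 280, 289 and 251 CPM with schisandrin B, 91.1, 97.5 and 85.3 CPM in fibrosis and 222, 246 and 261 CPM in normal libraries. It rose by 1.58 ± 0.17 over fibrosis (edgeR adjusted p 3.27e-05) and fell by 1.41 ± 0.17 in fibrosis relative to normal (edgeR adjusted p 5.22e-05), and the difference of its change from that of Nr1h4 was not tested. Nr1h3, the oxysterol receptor LXR alpha, rose by 1.38 over fibrosis and Nr1i2, the xenobiotic and bile acid receptor PXR, by 1.65.

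Nr1i3, the receptor CAR, had 41.6, 83.8 and 102 CPM with schisandrin B, 5.02, 6.21 and 1.70 CPM in fibrosis and 5.50, 3.93 and 13.4 CPM in normal libraries. It rose by 4.15 ± 0.60 over fibrosis (edgeR adjusted p 0.000435) and by 3.32 ± 0.58 over normal (edgeR adjusted p 0.00687), while fibrosis and normal libraries overlapped. Klb, the coreceptor through which the intestinal signal FGF15/19 reaches hepatocytes, had 6.79, 14.0 and 10.4 CPM with schisandrin B, 5.26, 2.35 and 2.58 CPM in fibrosis and 22.1, 25.8 and 26.7 CPM in normal libraries. It rose by 1.63 ± 0.34 over fibrosis (edgeR adjusted p 0.00212) but remained below normal by -1.25 ± 0.31 on the log2 scale (edgeR adjusted p 0.0275). That call was lost without schisandrin B replicate 1 or 3 or any one normal library, with an edgeR adjusted p of up to 0.102, and with hepatocyte marker scaling, at -1.12 (edgeR adjusted p 0.0502). Nr5a2, an activator of Cyp7a1 and Cyp8b1, fell by 1.04 ± 0.23 in fibrosis relative to normal (edgeR adjusted p 0.00293). The call for Nr5a2 was lost with library totals, at -0.59 (edgeR adjusted p 0.0823), and with hepatocyte marker scaling, at -0.44 (edgeR adjusted p 0.114). The deacetylase Sirt1 fell with schisandrin B relative to fibrosis, at -0.88 ± 0.30 (edgeR adjusted p 0.0305). Sirt1 and Mafg, a small Maf repressor, were the 2 that rose in fibrosis relative to normal, by 0.92 ± 0.30 (edgeR adjusted p 0.0241) and 0.81 ± 0.26 (edgeR adjusted p 0.0216). Both were named after their values had been seen. Without fibrosis replicate 1, highest for both, the rise was 0.67 for Sirt1 (edgeR adjusted p 0.072) and 0.46 for Mafg (edgeR adjusted p 0.0656), and the fall of Sirt1 with schisandrin B was -0.64 (edgeR adjusted p 0.0887). Sirt1 was also not called below fibrosis without any one schisandrin B library, nor above normal without normal replicate 1 or 3, and Mafg was not called without normal replicate 1.

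Of all 9869 tested genes with a mean of at least 5 CPM, those with profiles closest to that of Cyp7a1 over the 9 libraries were Slco1b2, Adh4 and Nrep, at root mean square differences of 1.03, 1.06 and 1.12 on the centred log2 scale. For Nr0b2 they were Apof, Acsm5 and Adh4, at 0.867, 0.983 and 1.00. The profile of Cyp8b1 had closer matches in Apoa2, Idh1 and Rxrg, at 0.189, 0.238 and 0.257. That of Abcb11 was matched by RGD735065, Tbcel and Zfyve1, at 0.111, 0.112 and 0.114.

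Markers of other liver cells and of hepatocytes were counted in the same way. Over all tested genes 48.3% were called in fibrosis over normal and 47.3% in schisandrin B over fibrosis. Lists called at about or below these shares, such as macrophage, endothelial and cholangiocyte markers, do not stand out from other genes. Of 10 cholangiocyte markers 8 were tested, and 4 rose and 0 fell in fibrosis relative to normal, while 2 fell and 0 rose with schisandrin B relative to fibrosis. Their summed level was 66.1 to 84.4 CPM with schisandrin B, 105 to 116 CPM in fibrosis and 75.6 to 80.0 CPM in normal libraries. Of the 14 hepatocyte markers 8 fell and 1 rose in fibrosis relative to normal, with a median of -0.68 on the log2 scale, and 6 rose and 1 fell with schisandrin B over fibrosis, with a median of 0.40. Of 5 tested lymphocyte markers 5 fell in fibrosis relative to normal (median -1.54), and with schisandrin B over fibrosis 1 rose and 0 fell (median 1.24). Their summed level was low throughout, at 5.25 to 8.31 CPM with schisandrin B, 1.89 to 2.94 CPM in fibrosis and 7.59 to 12.2 CPM in normal libraries. Of 7 endothelial markers 3 fell and 0 rose in fibrosis relative to normal, and 2 rose and 0 fell with schisandrin B over fibrosis. Their sums were 350.7 to 411 CPM with schisandrin B, 342 to 408 CPM in fibrosis and 428 to 543 CPM in normal libraries. Of 8 stellate cell markers 3 rose and 1 fell in fibrosis relative to normal, and 3 rose and 2 fell with schisandrin B over fibrosis. Lrat, the retinol-storing enzyme of stellate cells, was the 1 that fell in fibrosis, at -3.45 ± 0.31 (edgeR adjusted p 9.82e-06), and it rose by 3.87 ± 0.31 with schisandrin B over fibrosis (edgeR adjusted p 7.51e-06), named after its values had been seen. Acta2 and Des went the other way, with fibrosis means at 291% and 258% of normal. With schisandrin B they fell by 1.86 and 1.37 relative to fibrosis on the log2 scale, while Col1a1 and Col3a1 rose by 1.55 and 0.72. These genes were also named after their values had been seen. The stellate sums were 456 to 607 CPM with schisandrin B, 251 to 425 CPM in fibrosis and 243 to 390 CPM in normal libraries. Most of each sum was Col3a1, which averaged 364, 221 and 202 CPM in the same groups. Of 7 macrophage markers with a row 1 fell in fibrosis relative to normal, with sums of 649.6 to 941 CPM with schisandrin B, 725 to 1479 CPM in fibrosis and 1218 to 1879 CPM in normal libraries. The part of any marker list in the changes of the 10 genes was not tested. The scaling to hepatocyte markers given above does not test it, since some of those markers themselves rose or fell.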

How the data were processed

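The deposited file holds raw whole-number counts per gene symbol for 9 liver libraries, per the file headers and values. RNA was sequenced on the Ion Proton platform, per the labels' protocols. Aligner, counter and versions were not given in the sources used here. Mouse and a mouse build are named in the labels, but the strain is Wistar rat and the symbols are rat symbols (1317 names start with RGD), so no coordinates or reference sequence were used here. Samples were grouped by source name. The 10 genes, the ratios, the lists and the rule for named genes were chosen with earlier results of these data known. The rule named all 10, and up to 5 genes per list with the lowest p in each comparison with fibrosis. Exceptions are said to be named after their values were seen.

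The fit used edgeR 4.0.16 in R 4.3.3: filterByExpr, TMM factors, and a robust quasi-likelihood fit of all 9 libraries with a mean per group and no covariate, since the labels give no batch. Ratios used a pseudocount of 0.5. Alternatives were DESeq2 size factors, library totals, hepatocyte marker scaling, no filter, DESeq2 1.42.0, limma 3.58.1 voom, the 2 groups alone, a pseudocount of 2, and each library left out. The fit was tested on simulated data. Figures were drawn with matplotlib 3.10.9. Floors of 3 counts cover counting error only. A regulator that is counted in its list is not reported here by name.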

Additional observations from a re-analysis of the deposited data

How the results depend on the processing

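Over 30 results of the 10 genes and 16 alternatives each, 451 of 480 values kept their direction and side of the threshold, 11 lost a call, 13 gained one and 5 changed sign. For schisandrin B over fibrosis, hepatocyte marker scaling called 1 of the 10 genes lower, Cyp7b1, where all other alternatives called 0. For schisandrin B over normal, where the main result is 0 in either direction, 1 gene was higher with limma voom and 2 on the 2 groups alone. Without filter, with DESeq2 and on the 2 groups alone 1 was lower. Leaving out a library gave 0 to 1 higher and 0 to 1 lower. At an unadjusted p under 0.05, edgeR had 2 genes higher and 1 lower. Over all genes, that comparison had 1531 calls, 2951 on the 2 groups alone, and 702 to 2814 with a library left out (2814 without fibrosis replicate 1, 702 without schisandrin B replicate 3). In the same comparison small uncalled differences changed sign: Cyp27a1 to 0.0045 and Nr1h4 to 0.0026 with library totals; Slc27a5 to 0.084 with library totals and 0.070 with hepatocyte marker scaling. With a library left out Slc27a5 ran from -0.164 to 0.0067, Abcg8 from -1.06 to 0.24, Nr1h3 from -0.056 to 0.12, and the Cyp7a1 to Cyp7b1 ratio from -0.98 to 0.11. Library totals moved the median gene by 0.43 in fibrosis over normal and by -0.27 in schisandrin B over fibrosis, and hepatocyte marker scaling by 0.61 and -0.47. The share of calls that were higher was 74.7% and 32.6% with library totals and 80.2% and 25.0% with hepatocyte marker scaling, against 52.7% and 47.6% with TMM. In schisandrin B over normal it was 70.3%, 69.4% and 50.0%. The cause of these changes was not tested. No paired analysis was possible because the labels give no replicate numbers shared between groups. Depth limits Cyp7b1, with 11 to 116 counts per library, and Nr0b2 in fibrosis.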
